A study of Mus musculus with 12 samples.

Results

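The solute carriers whose transcripts were detected in mouse alveolar macrophages were compared between mice given multi-walled carbon nanotubes (MWCNT) and vehicle controls. Solute carriers (gene symbols Slc followed by a family number) are membrane proteins that move ions, metals, sugars, amino acids, vitamins, lipids and nucleotides across the cell surface and across the membranes of mitochondria, lysosomes, endosomes and the Golgi. Most work by facilitated diffusion or by coupling a substrate to an ion gradient, and unlike pumps they hydrolyse no ATP. Alveolar macrophages take up surfactant, particles and dying cells, and carriers on their endosomes and lysosomes release the digested metals, peptides and nucleosides into the cytosol.

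Members were chosen by detection: all genes with such a symbol in the array annotation that had a probe at a detection p-value under 0.05 on at least 6 of the 12 arrays, each standing with its probe of highest mean. Of 356 such genes on the array, 7 (Slc6a8, Slc7a2, Slc7a11, Slc11a1, Slc11a2, Slc40a1 and Slc2a1) were set aside by name. Of the other 349, 144 were detected on no array, 44 on 1 to 5 arrays and 161 on 6 or more, and these 161 are the members. They include 141 detected on all 12 arrays and 20 detected on 6 to 11. Just inside the limit, Slc36a2 and Slc5a12 were detected on 2 MWCNT and 4 control arrays each and Slc6a9 on 3 of each. Just outside it, Slc22a4 and Slc6a12 were detected on 5 MWCNT and no control arrays, with mean log2 levels of 5.54 and 6.46 on MWCNT arrays against 4.69 and 4.69 on control arrays. Slc37a4, Slc4a8 and the pseudogene Slc2a4rg-ps were each detected on 4 MWCNT arrays and 1 control array. Of 4 members the symbol is historical and the protein is no carrier (Slc9a3r1, Slc9a3r2, Slc7a6os and Slc4a1ap).

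The study used 6 MWCNT and 6 control C57Bl/6 mice, 1 array each, with total RNA of lavaged alveolar macrophages taken at day 60. MWCNT mice had received 100 μg of nanotubes by oropharyngeal instillation, and the vehicle, 35% surfactant in saline, was given to both groups. The submitters state a purity above 90% for the isolated macrophages. Illumina Mouse WG-6 v2 arrays were hybridised, and 13210 features (1 probe per named gene, and unnamed probes) were tested. Levels are normalized log2 intensities, which compare arrays for 1 probe but not probes with each other, and ± after a level is the SD over the 6 arrays of a group.

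Some arrays stood apart. On MWCNT 5 and 6 the signal of Xist, transcribed from the inactive X, was 153 and 140, against 2101 to 3610 on the other 10 arrays, and that of the Y-linked Eif2s3y was 1588 and 1920, against 136 to 186. The labels used here give no sex, and control arrays of that kind were absent, so results are also given without these arrays. MWCNT 5 was also the array nearest to the control mean for 43.9% of the 1700 called features, and for 9 of the 28 called members. Markers of other cells moved with exposure. Of 13 measured T and NK cell markers 8 rose and none fell, of 5 B and plasma cell markers 4 rose, of 7 neutrophil markers 4 rose, and of 9 dendritic cell markers 7 rose. The mean log2 level over the T and NK markers was between 7.33 and 8.60 on MWCNT arrays and between 6.60 and 6.86 on control arrays. B and plasma markers were between 5.99 and 9.20 on MWCNT arrays, lowest on MWCNT 5, and between 5.65 and 5.77 on control arrays. Neutrophil markers were between 7.76 and 8.51 on MWCNT arrays and between 7.02 and 7.34 on control arrays, and dendritic cell markers between 7.68 and 8.48 on MWCNT arrays and between 7.27 and 7.48 on control arrays. Of the defining markers Cd79b and S100a9 were detected on no control array and Cd3e on 1, while Cd3d and Cd3g were detected on 5 and Cd22 and S100a8 on 6. All control arrays detected 5 of the 13 T and NK, 1 of the 5 B and plasma, 3 of the 7 neutrophil and 6 of the 9 dendritic cell markers. The 4 raised B and plasma markers (Cd79b, Blk, Mzb1 and Fcmr) were detected on no control array, and Cd22 differed by 0.05. Markers detected on fewer than 3 control arrays passed the detection filter (3 or more arrays) only through MWCNT arrays, so their part in these counts is not support. This holds also for the raised Cd3e (1 control array) and Siglech (2). Over all features 6.98% rose and 5.89% fell. Of 14 monocyte-derived macrophage markers 11 rose, their mean lying between 8.83 and 9.52 on MWCNT arrays and between 8.12 and 8.35 on control arrays. All control arrays detected 9 of these 14. Ccr2, Ly6c1 and F13a1, all of them raised, were detected on no control array and passed the detection filter only through MWCNT arrays. Epithelial markers (3 of 13 rose, 1 fell), endothelial and stromal markers (2 of 5 rose) and erythroid markers (0 of 2 called) were also measured. The raised stromal marker Dcn was detected on no control array, so it too is not support. The 12 measured markers of resident alveolar macrophages were detected on all control arrays, 3 rose (Ctsk by 0.88, Marco by 0.44 and Car4 by 0.36) and 2 fell (Cidec −0.58 and Krt79 −0.52), and their mean lay between 12.83 and 12.97 on MWCNT arrays and between 12.79 and 12.89 on control arrays. In bulk RNA, fewer cells of a type and less RNA per cell cannot be told apart, and the part of other cells in the carrier results was not tested.

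Promoter sequences are shown for 5 genes, picked after their values were seen from those whose calls held under every alternative that gave a value: both copper transporters, a lysosomal carrier of the folate transporter family, a magnesium transporter and an aromatic amino acid transporter. The sequences are the 250 bases before the annotated start, from RefSeq in build GRCm38.p6, written 5′ to 3′ on the gene's strand, at chr4:62360451-62360700 (plus strand) for Slc31a1, chr4:62286179-62286428 (plus strand) for Slc31a2, chr5:147894816-147895065 (minus strand) for Slc46a3, chr1:131827762-131828011 (plus strand) for Slc41a1 and chr10:40142255-40142504 (minus strand) for Slc16a10. Capitals mark matches, on either strand, to the metal response element core (TGCGCNC or TGCACNC, where N is any base), to the E-box CACGTG or to the PU.1 core GAGGAA.
Slc31a1 promoter: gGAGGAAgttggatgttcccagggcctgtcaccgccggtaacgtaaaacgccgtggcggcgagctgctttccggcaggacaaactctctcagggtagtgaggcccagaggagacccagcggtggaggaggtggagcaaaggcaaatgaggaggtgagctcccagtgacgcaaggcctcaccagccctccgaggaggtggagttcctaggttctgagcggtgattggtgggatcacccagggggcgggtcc
Slc31a2 promoter: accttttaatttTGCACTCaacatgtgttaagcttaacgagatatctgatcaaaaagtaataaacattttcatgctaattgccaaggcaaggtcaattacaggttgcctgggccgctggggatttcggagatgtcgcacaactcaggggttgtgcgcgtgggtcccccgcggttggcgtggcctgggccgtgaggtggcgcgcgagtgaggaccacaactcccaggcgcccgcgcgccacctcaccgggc
Slc46a3 promoter: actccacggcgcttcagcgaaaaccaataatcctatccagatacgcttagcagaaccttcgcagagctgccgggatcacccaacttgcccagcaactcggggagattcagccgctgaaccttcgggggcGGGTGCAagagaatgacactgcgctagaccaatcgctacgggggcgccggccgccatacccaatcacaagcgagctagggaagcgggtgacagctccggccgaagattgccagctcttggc
Slc41a1 promoter: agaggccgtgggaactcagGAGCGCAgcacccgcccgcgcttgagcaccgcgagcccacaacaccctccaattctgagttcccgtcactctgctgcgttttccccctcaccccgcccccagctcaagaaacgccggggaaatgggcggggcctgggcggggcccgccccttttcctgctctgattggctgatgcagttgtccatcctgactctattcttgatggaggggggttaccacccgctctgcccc
Slc16a10 promoter: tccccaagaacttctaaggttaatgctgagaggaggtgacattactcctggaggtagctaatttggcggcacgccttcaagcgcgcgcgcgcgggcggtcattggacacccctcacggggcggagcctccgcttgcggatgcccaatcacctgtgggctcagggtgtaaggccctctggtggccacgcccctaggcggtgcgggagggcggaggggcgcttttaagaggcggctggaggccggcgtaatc
The metal response element core, bound by the zinc sensor MTF1, was matched once each in Slc31a2, Slc46a3 and Slc41a1, of which 2 rose and 1 fell. It occurred in 21.3% of 27025 promoters of this length in 26.2% of the 126 members with a promoter in the table and in 4 of the 11 promoters matched among the 13 members called under every alternative. The E-box was in 6.05% of all promoters and 12.7% of member promoters, and in none of those 11. The PU.1 core, a myeloid factor's motif, was in 23.1% of all promoters, in 29 of the 126 member promoters and in 2 of those 11, once in Slc31a1. A match is a string of letters and no measured site.

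Across the 161 members, single carriers were higher or lower after MWCNT exposure while the set as a whole was centred near 0. By limma with Benjamini-Hochberg adjustment over all 13210 features, 15 members rose (9.32%) and 13 fell (8.07%) at an adjusted p under 0.05, while 133 did not pass. Over all features 6.98% rose and 5.89% fell, and among 9418 named genes detected on at least 6 arrays 6.67% rose and 5.34% fell, so the members' shares lie near the background. Among the 141 members detected on all arrays 13 rose and 11 fell. Among these 24, levels were between 1.16 and 1.66 times the control level where they rose and between 0.644 and 0.844 times where they fell, with 4 and 1 of them past 1.5-fold. The median log2 difference (MWCNT minus control) was −0.01 over members and −0.02 over all features, and the SD of the differences was 0.26 over members and 0.38 over all features. The 2 groups of arrays did not overlap for 9 members with higher and 3 with lower MWCNT values, and for 4.07% and 2.81% of all features. Without MWCNT 5 and 6, 18 members rose and 8 fell, with 7.22% and 4.78% of all features. Of the calls, 19 were shared between the 2 fits, 9 were made only with all arrays and 7 only without these 2. Normalization weighed on the balance: under median scaling in place of quantiles 27 members rose and 4 fell, so that 87.1% of calls were increases against 53.6%, and the median of all features moved to 0.10. The shares of all features raised and lowered under that scaling are not given here, so this balance is not read as particular to the members.

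The sizes of many called differences depended on how background was handled. With the authors' processed values, 16 of the 28 called members had a log2 difference smaller by over 1.5 times, and without background correction 11 did. Among the raised members the authors' values gave 0.34 for Slc31a2, 0.39 for Slc37a2, 0.14 for Slc2a3, 0.22 for Slc27a3, 0.11 for Slc22a23, 0.21 for Slc19a2, 0.15 for Slc35f6, 0.13 for Slc35e2 and 0.10 for Slc18b1. Among the lowered members they gave −0.10 for Slc41a1, −0.11 for Slc38a4, −0.20 for Slc13a2, −0.07 for Slc13a3, −0.14 for Slc35a5, −0.23 for Slc9a2 and −0.12 for Slc9a9. No sign changed in these fits, and the other 12 called members stayed within 1.5 times of their size.

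**Figure D1:**
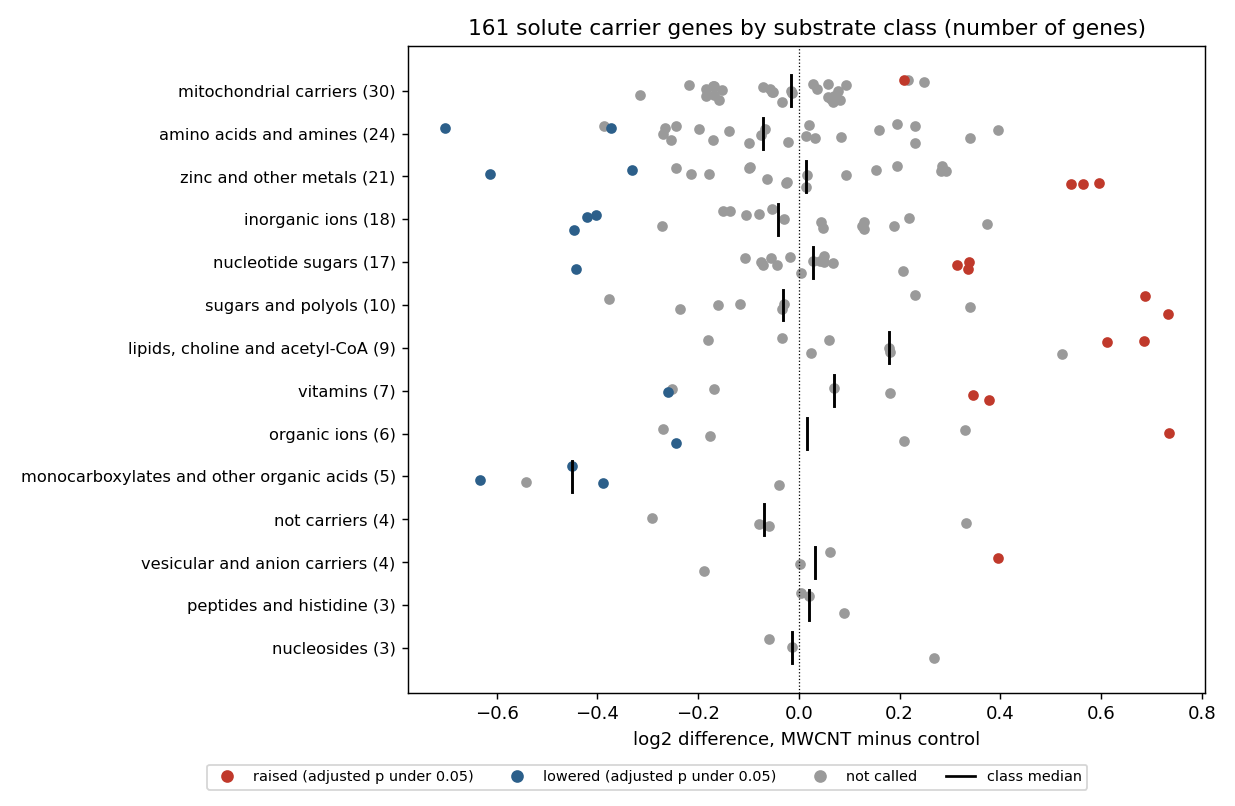
Log2 difference (MWCNT minus control, horizontal axis) of each of the 161 members, 1 point per gene, in rows by substrate class with the number of genes and the class median as a bar. Red and blue points passed an adjusted p under 0.05, and the medians lie near 0 except for 0.18 in the lipid class and −0.45 in the class of monocarboxylates and other organic acids. The latter is the value of Slc16a10, an aromatic amino acid carrier kept with its family.

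The plot by substrate class shows calls in most classes. Both directions occurred among metals, vitamins, nucleotide sugars and organic ions. Each other class with a call held increases only or decreases only. The classes of metals (21 members), sugars (10), lipids (9), vitamins (7) and nucleotide sugars (17) held 12 of the 15 increases. These classes were put together after their counts were seen. They also held decreases, 2 among metals, 1 among vitamins and 1 among nucleotide sugars. All 3 calls among the 5 carriers of monocarboxylates and other organic acids were decreases, including Slc16a10, which carries aromatic amino acids. All 3 calls among 18 inorganic ion carriers were decreases too. The shares over all features were 6.98% raised and 5.89% lowered. No list was tested against others, and the class sizes are small.

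Of the 5 increases with the smallest adjusted p-values 3 were of a zinc and 2 copper carriers (the other two were Slc22a23 and Slc35b1). Slc39a6, a zinc importer of the ZIP family, lay between 10.21 and 10.44 on MWCNT arrays (median 10.26) and between 9.56 and 9.81 on control arrays (median 9.73). The groups did not overlap, and the difference was 0.56 ± 0.07 (log2, SE, n = 6 mice each, adjusted p = 0.000129, limma). Slc31a1, the high-affinity copper importer of the cell surface, lay between 9.06 and 9.70 on MWCNT arrays (median 9.55) and between 8.80 and 9.01 on control arrays (median 8.86). MWCNT 5 and 6 were its lowest MWCNT arrays, yet all 6 stood above the controls, with a difference of 0.60 ± 0.10 (adjusted p = 0.00175), or 0.73 without these arrays. Slc31a2, its paralogue on endosomes and lysosomes, lay between 8.89 and 9.41 on MWCNT arrays (median 9.03) and between 8.46 and 8.69 on control arrays (median 8.52), again with no overlap (0.54 ± 0.09, adjusted p = 0.00157). These 2 were the only members of the Slc31 family, and both genes lie on chromosome 4. All 3 metal carriers stayed called under each of the 25 alternatives tried.

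Magnesium carriers of the Slc41 family were lower or uncalled. Slc41a1, a magnesium exporter, lay between 5.15 and 5.72 on MWCNT arrays (median 5.60) and between 5.92 and 6.26 on control arrays (median 6.18), with no overlap and a difference of −0.61 ± 0.10 (adjusted p = 0.0016), which was −0.19 without background correction and −0.10 with the authors' values. It was not detected on 1 MWCNT array. Slc41a3 lay between 8.74 and 9.07 on MWCNT arrays (median 8.83) and between 9.05 and 9.47 on control arrays (median 9.15), overlapping at 1 MWCNT array. Its difference was −0.33 ± 0.09 (adjusted p = 0.0269), its other probe gave −0.18, and the call was lost without MWCNT 2, 3 or 6 or control 2 (adjusted p up to 0.0567). It was also lost without MWCNT 5 and 6 (0.0546), with the mean of its probes (0.0554) and under median scaling (−0.18, adjusted p = 0.392). Slc41a2 averaged 8.55 ± 0.17 on MWCNT arrays and 8.27 ± 0.12 on control arrays, a difference of 0.29 that missed the threshold (adjusted p = 0.0534) and passed without MWCNT 5 and 6 (0.38). The remaining 15 members of the metal class did not pass. They include 8 further ZIP carriers, between −0.18 and 0.29, and all 5 zinc exporters and relatives of the Slc30 family, between −0.24 and 0.09. Slc48a1, which carries heme out of lysosomes, differed by 0.15 and was not called. Mt1 and Mt2, metallothioneins that bind zinc and copper, differed by −0.02 and 0.16 and were not called, and neither was Mtf1 (0.03).

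**Figure D2:**
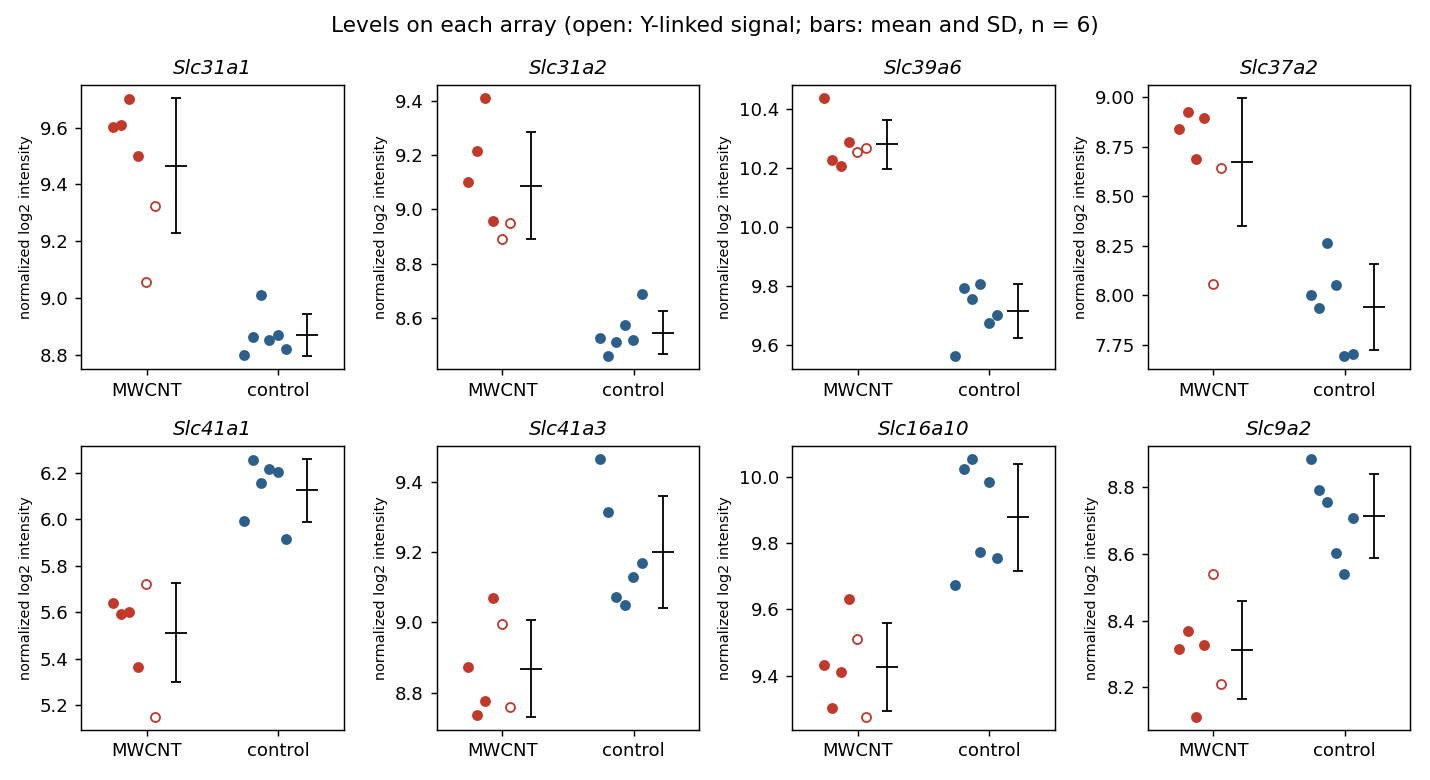
Normalized log2 intensity (vertical axes, each with its own range) of 8 carriers on each MWCNT array (red, open for the arrays with Y-linked signal) and each control array (blue), with mean and SD beside each group (n = 6). Slc31a1, Slc31a2 and Slc39a6 are higher and Slc41a1 and Slc16a10 lower on all MWCNT arrays, while Slc37a2 has 1 MWCNT array (8.06) within the control range.

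Sugar carriers held a pair of increases among 10 members. Slc37a2, a sugar phosphate exchanger of the endoplasmic reticulum that is abundant in macrophages, lay between 8.06 and 8.92 on MWCNT arrays (median 8.76) and between 7.69 and 8.26 on control arrays (median 7.97). MWCNT 5 alone lay within the control range, and the difference was 0.73 ± 0.15 (adjusted p = 0.0049), or 0.86 without that array. Slc2a3, the glucose transporter GLUT3, lay between 5.91 and 6.95 on MWCNT arrays (median 6.48) and between 5.36 and 6.13 on control arrays (median 5.86). Again MWCNT 5 was the overlapping array (difference 0.69 ± 0.18, adjusted p = 0.0203), and 1 control array did not detect the gene. Slc2a6, a hexose carrier of lysosomes, averaged 9.63 ± 0.22 on MWCNT arrays and 9.29 ± 0.16 on control arrays and missed the threshold (0.34, adjusted p = 0.0547), but passed without MWCNT 5 and 6 (0.47). The other 7 lay between −0.38 and 0.23, with Slc45a4 at 0.23, Slc37a1 at −0.16 and Slc37a3 at −0.12. With its other probes Slc45a4 differed by −0.03 and 0.09. The lowest, Slc5a12, is a sodium-coupled monocarboxylate carrier kept here with its sugar-carrying family, at 5.25 on MWCNT arrays and 5.63 on control arrays.

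All 4 members of the Slc27 family, fatty acid transport proteins with acyl-CoA synthetase activity, had positive differences and 2 of them rose. Slc27a1 lay between 9.31 and 9.91 on MWCNT arrays (median 9.39) and between 8.46 and 9.16 on control arrays (median 8.95). The groups did not overlap (0.61 ± 0.13, adjusted p = 0.00813). Slc27a3 lay between 6.83 and 7.82 on MWCNT arrays (median 7.44) and between 6.36 and 7.02 on control arrays (median 6.71), with 1 MWCNT array inside the control range (0.69 ± 0.15, adjusted p = 0.00845). Slc27a6 differed by 0.52 (adjusted p = 0.0727) and Slc27a4 by 0.06. Slc10a3, of the bile acid carrier family, differed by −0.03. The choline carriers Slc44a1 and Slc44a2 differed by 0.18 each and Slc44a4 by 0.02, none of them called. The class of lipids, choline and acetyl-CoA had a median of 0.18 over 9 members, 7 of them positive, and without MWCNT 5 and 6 the number raised was 4.

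Among 7 members classed with vitamins, Slc46a3 by its family, 2 rose and 1 fell. Slc46a3, a lysosomal member of the folate transporter family, lay between 10.69 and 11.01 on MWCNT arrays (median 10.81) and between 10.20 and 10.59 on control arrays (median 10.47), without overlap (0.38 ± 0.08, adjusted p = 0.00649). Slc19a2, a thiamine transporter, differed by 0.34 ± 0.10 (adjusted p = 0.0424), but its call was lost without MWCNT 5 and 6 and when any of 9 single arrays was left out (adjusted p up to 0.0841). Slc52a3, a riboflavin transporter, averaged 11.16 ± 0.15 on MWCNT arrays and 11.42 ± 0.09 on control arrays with no overlap, the highest MWCNT array at 11.31 and the lowest control array at 11.32 (−0.26 ± 0.08, adjusted p = 0.0441). That call too was lost without MWCNT 5 and 6 and without any of 10 single arrays. Slc5a6, which carries biotin and pantothenate, did not overlap between groups either, at 9.85 to 10.07 on MWCNT arrays and 9.64 to 9.82 on control arrays, but missed the threshold (0.18, adjusted p = 0.0729). It passed without background correction (adjusted p = 0.0375), with the authors' values (0.0217) and with array weights (0.0438), and reached 0.149 at most over the alternatives. The folate carriers Slc19a1 and Slc46a1 differed by −0.17 and −0.25 and the ascorbate carrier Slc23a2 by 0.07, none of them called. A dimmer probe of Slc23a2, detected on 12 arrays, gave −0.43.

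The Slc35 family, kept whole as the class of nucleotide sugars, gave 3 increases and 1 decrease among 17. The class name is that of the family and not a known substrate of each member. Slc35b1, an ATP/ADP exchanger of the endoplasmic reticulum, lay between 11.71 and 11.86 on MWCNT arrays (median 11.75) and between 11.35 and 11.47 on control arrays (median 11.44). The groups were tight and apart, with a difference of 0.34 ± 0.06 (adjusted p = 0.00155). Slc35f6 differed by 0.31 (adjusted p = 0.0388) and Slc35e2 by 0.34 (adjusted p = 0.0396), and both calls were lost without MWCNT 5 and 6. They were also lost without any of 9 single arrays for Slc35f6 and of 10 for Slc35e2, whose other probe pointed the opposite way (−0.39). Slc35a5, a nucleotide sugar transporter, lay between 6.71 and 7.15 on MWCNT arrays (median 6.85) and between 7.07 and 7.53 on control arrays (median 7.35), overlapping at 1 MWCNT array. The difference was −0.44 ± 0.09 (adjusted p = 0.00756), its other probe gave −0.32, and under median scaling it was −0.19 and uncalled. The other 13 lay between −0.11 and 0.21 and include the transporters of CMP-sialic acid (Slc35a1, −0.11), UDP-galactose (Slc35a2, −0.05) and GDP-fucose (Slc35c1, 0.05).

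All 5 carriers of monocarboxylates and other organic acids had negative differences with the probes used, and 3 fell. Slc16a10, which carries aromatic amino acids although it belongs to the monocarboxylate family, lay between 9.28 and 9.63 on MWCNT arrays (median 9.42) and between 9.67 and 10.06 on control arrays (median 9.88). The groups did not overlap (−0.45 ± 0.09, adjusted p = 0.00476), and its other probe gave −0.43. Slc13a2, a sodium-coupled carrier of citrate and other dicarboxylates, lay between 6.18 and 7.39 on MWCNT arrays (median 6.88) and between 7.23 and 7.78 on control arrays (median 7.39), with 1 MWCNT array in the control range. Its 2 lowest values were on MWCNT 5 and 6, and the difference of −0.63 ± 0.17 (adjusted p = 0.0233) was not called without them or without control 3 (adjusted p = 0.0511, with 0.00602 to 0.174 over the alternatives). Slc13a3, of the same substrate class, stood at the threshold (−0.39 ± 0.12, adjusted p = 0.0499) and lost its call under 21 of 25 alternatives. Slc16a3, the lactate exporter MCT4, lay between 6.31 and 8.12 on MWCNT arrays (median 6.92) and between 7.38 and 7.92 on control arrays (median 7.61). Of its MWCNT arrays 4 lay below all controls and MWCNT 2 above them, and the difference of −0.54 (95% interval −1.11 to 0.03, adjusted p = 0.201) was not called, passing only without MWCNT 2 (−0.75, adjusted p = 0.0398, with 0.0398 to 0.63 over the alternatives). The other probe of Slc16a3 gave −0.09. Slc16a6 differed by −0.04 with the probe used, by 0.35 and 0.29 with its other probes, and by 0.11 under median scaling. Without MWCNT 5 and 6, Slc16a10 alone of the class remained called. Emb, embigin, which escorts monocarboxylate carriers to the membrane, fell (log2 difference −0.48, adjusted p = 0.0135).

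Of 5 sodium-proton exchangers of the Slc9 family 3 fell and none rose. Slc9a2 lay between 8.11 and 8.54 on MWCNT arrays (median 8.32) and between 8.54 and 8.89 on control arrays (median 8.73). The groups met at MWCNT 5, the difference was −0.40 ± 0.08 (adjusted p = 0.00687), and its other probes gave −0.63 and −0.66. Slc9a4 averaged 8.94 ± 0.19 on MWCNT arrays and 9.39 ± 0.22 on control arrays (−0.45 ± 0.11, adjusted p = 0.0215), with −0.43 from a second probe. Slc9a9, an exchanger of endosomes, averaged 6.74 ± 0.26 on MWCNT arrays and 7.16 ± 0.11 on control arrays (−0.42 ± 0.11, adjusted p = 0.025), and lost its call without MWCNT 1, control 2 or control 6 (adjusted p up to 0.0552). Under median scaling these differences were −0.22, −0.29 and −0.18 and none was called. The exchangers Slc9a7 and Slc9a8 differed by −0.11 and 0.13, and the scaffold Slc9a3r2, which anchors an exchanger of the family, by −0.29 (adjusted p = 0.0547). The remaining ion carriers include the phosphate importer Slc20a1 (0.37, adjusted p = 0.0859), the mitochondrial sodium-calcium exchanger Slc8b1 (0.22, adjusted p = 0.113) and the anion exchanger Slc4a2 (−0.08). A second probe of Slc20a1, detected on 11 arrays against 9 for the probe used, gave 0.01. Of 6 cation-chloride cotransporters of the Slc12 family none was called with the probes used (−0.27 to 0.19). A second probe of Slc12a7, detected on all arrays, gave −0.59, against −0.15 with the probe used. Stk39, a kinase that regulates such cotransporters, fell (−0.81, adjusted p = 0.000203), while the kinases Oxsr1 and Wnk1 differed by −0.14 and 0.04.

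**Figure D3:**
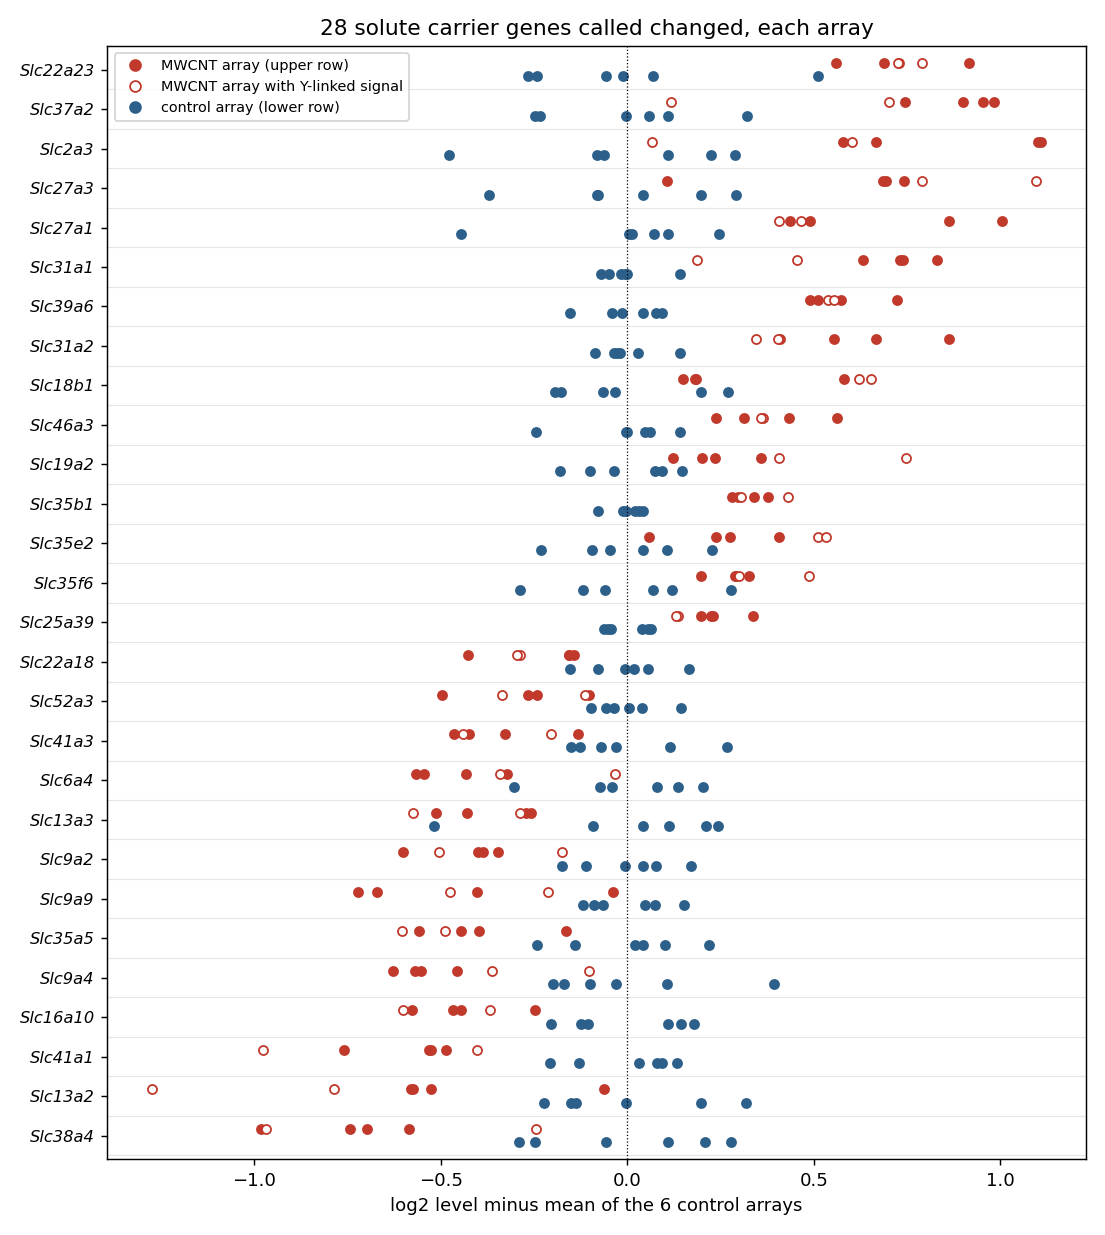
Log2 level of the 28 called members on each MWCNT array (red, upper row of each pair, open for the arrays with Y-linked signal) and control array (blue, lower row), each minus the mean of the 6 control arrays (horizontal axis). Separation without overlap is seen for 8 of the raised and 3 of the lowered genes, and MWCNT 5 lies inside the control range for Slc37a2 and Slc2a3.

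Amino acid and amine carriers showed 2 decreases and no increase among 24. Slc38a4, a sodium-coupled neutral amino acid transporter, lay between 4.81 and 5.55 on MWCNT arrays (median 5.07) and between 5.50 and 6.07 on control arrays (median 5.82). It was detected on 1 MWCNT array and on 6 control arrays, and its difference was −0.70 ± 0.14 (adjusted p = 0.0043), overlapping at MWCNT 5. It entered the members through its control arrays, so its place among them does not count as support. Slc6a4, the serotonin transporter, averaged 11.40 ± 0.19 on MWCNT arrays and 11.78 ± 0.18 on control arrays (−0.37 ± 0.11, adjusted p = 0.0342), with −0.53 from a second probe, and lost its call without any of 10 single arrays (adjusted p up to 0.0737). Slc7a7, the light chain of a cationic amino acid exchanger, averaged 9.77 ± 0.13 on MWCNT arrays and 9.83 ± 0.27 on control arrays and differed by −0.07 (adjusted p = 0.764). Its heavy chain partner Slc3a2 averaged 6.49 ± 0.30 on MWCNT arrays and 6.09 ± 0.44 on control arrays and differed by 0.40 (95% interval −0.02 to 0.81, adjusted p = 0.206), passing only under median scaling. Slc7a8, another light chain, differed by 0.34 (adjusted p = 0.0712), and by 0.05 with its other probe. Slc38a9, the lysosomal arginine sensor, differed by −0.24 and was not called. In the list of amino acid sensing on the lysosome 2 of 22 measured genes rose (Rragd at least 1.32-fold, not detected on a control array, and Rragc by 0.22) and Rragb fell by 0.77 on the log2 scale, all 3 of them Rag GTPases. Rragd passed the detection filter only through MWCNT arrays. Slc66a2, with one of the brightest probes, differed by −0.07. Slc6a6, the taurine transporter, differed by 0.02, with a 95% interval of −0.12 to 0.16.

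Mitochondrial carriers, the largest class with 30 members of the Slc25 family, gave 1 call. Slc25a39, an importer of glutathione into mitochondria, lay between 10.57 and 10.78 on MWCNT arrays (median 10.65) and between 10.37 and 10.50 on control arrays (median 10.44). It did not overlap between groups, but the difference was small (0.21 ± 0.06, adjusted p = 0.0372), and its call was lost without any of 8 single arrays (adjusted p up to 0.077). With the probes used, all other differences of the class lay between −0.32 and 0.25, 14 of the 30 being positive, and the median was −0.01. A second probe of Slc25a36, detected on 12 arrays, gave −0.38, against −0.17 with the probe used. The other probes of Slc25a38 gave −0.24 and −0.16, against 0.07. Slc25a44 (0.25) passed without MWCNT 5 and 6 (0.38, adjusted p = 0.0127, limma). The ADP/ATP exchanger Slc25a5 averaged 13.78 ± 0.12 on MWCNT arrays and 13.81 ± 0.20 on control arrays, differing by −0.03 (95% interval −0.24 to 0.17). The phosphate carrier Slc25a3 differed by 0.04, the citrate carrier Slc25a1 by −0.16 and the carnitine-acylcarnitine carrier Slc25a20 by 0.09, none of them called.

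Peptide, nucleoside, vesicular and organic ion carriers held the last called members. None of the 3 peptide and histidine carriers passed: Slc15a3, which exports histidine and peptides from lysosomes, averaged 13.56 ± 0.06 on MWCNT arrays and 13.55 ± 0.13 on control arrays, a difference of 0.00 with a 95% interval of −0.15 to 0.16. Slc15a4, of the same function, differed by 0.09 (−0.19 with its other probe), and Slc15a2 by 0.02 with a wide interval (−0.74 to 0.78). Of 3 nucleoside carriers, Slc29a1 of the cell surface differed by −0.01 and Slc29a2 by −0.06, while the lysosomal Slc29a3 averaged 10.05 ± 0.28 on MWCNT arrays and 9.78 ± 0.12 on control arrays (0.27, adjusted p = 0.158) and passed without MWCNT 5 and 6 (0.39, adjusted p = 0.0493, with 0.0493 to 0.293 over the alternatives). Among 6 organic ion carriers, Slc22a23, whose substrate is unknown, lay between 5.57 and 5.92 on MWCNT arrays (median 5.74) and between 4.74 and 5.52 on control arrays (median 4.97). It was detected on 6 MWCNT arrays and 1 control array, the groups did not overlap, and the difference was 0.73 ± 0.12 (adjusted p = 0.00131), and it entered the members through its MWCNT arrays. Slc22a18, an imprinted gene, differed by −0.24 (adjusted p = 0.0472), and Slc18b1, a vesicular polyamine carrier, differed by 0.40 (adjusted p = 0.0469). Both calls were lost without MWCNT 5 and 6, and without any of 11 single arrays for Slc22a18 and 7 for Slc18b1. The carnitine importer Slc22a5 differed by −0.18 and the vesicular nucleotide carrier Slc17a9 by 0.00, neither of them called. Slc17a5, the sialic acid exporter of lysosomes, differed by −0.19 and was not called. The 4 members that are no carriers did not pass. Of the other genes looked for by name, Slc34a2 and Slc39a8 were detected on no array, and no probe used here had the symbol Slc7a5.

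**Figure D4:**
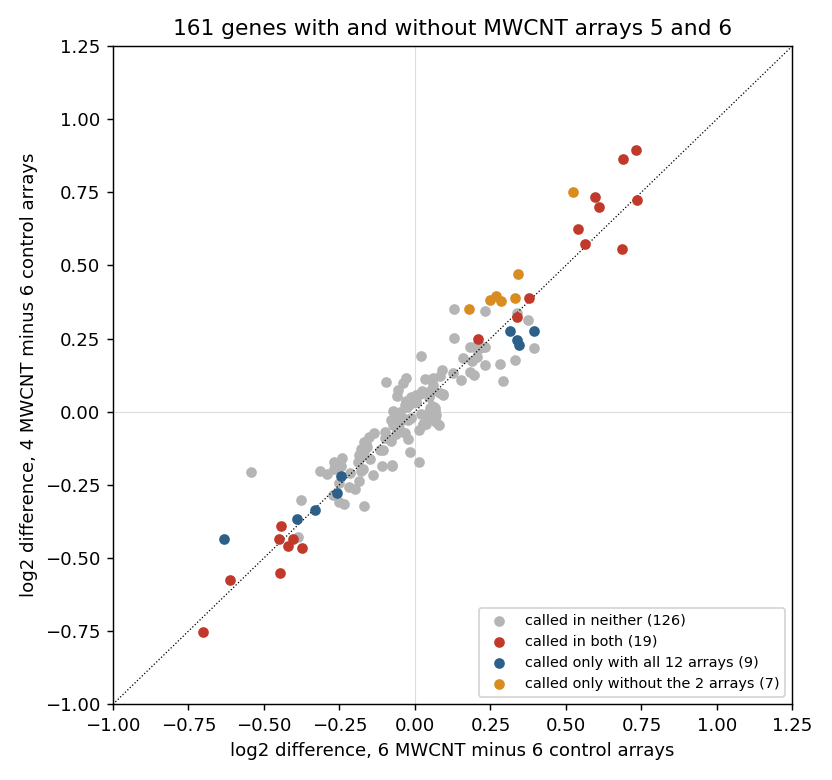
Log2 difference of the 161 members with all arrays (horizontal axis, 6 MWCNT minus 6 control) against that without MWCNT 5 and 6 (vertical axis, 4 MWCNT minus 6 control), with the diagonal dotted. The 2 axes share 10 arrays, and the colours mark the 19 genes called in both fits, the 9 called only with all arrays and the 7 called only without these 2.

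Of the 28 called members, 13 kept their call under every alternative that gave a value. Slc22a23 and Slc38a4 are among them, but were detected on a single control and a single MWCNT array and entered through the group where they are high, so they are not counted as support. The other 11 are Slc16a10, Slc27a1, Slc27a3, Slc2a3, Slc31a1, Slc31a2, Slc35b1, Slc37a2, Slc39a6, Slc41a1 and Slc46a3, all of them also called in the plot of differences with and without MWCNT 5 and 6. Second probes were measured for 7 called members, and 7 of the 8 other probes had the sign of the probe used.

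Transport proteins outside the Slc names were read beside the members. Of 29 measured carriers of other names 5 rose and 2 fell, with a median of −0.03. Slco4a1, an organic anion transporter detected on 5 MWCNT arrays and no control array, was at least 1.85-fold higher (adjusted p = 0.0011), a bound that sets each control array at the higher of the probe's own level and the lowest level detected there. Slco3a1 of the same family, detected on 6 MWCNT and 2 control arrays, differed by 0.98 (adjusted p = 0.00167, limma). The phosphate and pyrophosphate exporter Ank differed by 0.79 (adjusted p = 0.000588). Mfsd7a (0.29) and the heme exporter Flvcr1 (0.35) also rose, and Mfsd2a, a lysolipid transporter, and Sfxn5 fell by 0.74 and 0.34 on the log2 scale. Of 17 ATP-driven ABC transporters 2 rose, Abcc3 (at least 1.98-fold, adjusted p = 0.000292) and Abcb1b (at least 1.73-fold, adjusted p = 0.00128), neither of them detected on a control array. Slco4a1, Slco3a1, Abcc3 and Abcb1b passed the detection filter only through MWCNT arrays, so their places in these counts are not support. Over all features 6.98% rose and 5.89% fell. Among 11 ion pumps the calcium pump Atp2a3 (1.06) and the sodium pump subunit Atp1b1 (0.74) rose and the calcium pump Atp2b4 fell by 0.43 on the log2 scale, while the copper pump Atp7a differed by −0.15 and was not called. Of 8 carrier partner and chaperone proteins Emb and Stk39 fell, as given above, and none rose.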

How the data were processed

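Per the labels, total RNA of alveolar macrophages from 12 mice was biotin-labelled and hybridised to Illumina Mouse WG-6 v2 arrays. The deposited table that is not normalized holds probe intensity and a detection p-value per array, per the file headers. The submitters' processing notes name lumi, with no version given. The authors' processed matrix holds normalized intensity on a linear scale, with a lowest value of 200.3 and column medians near 227.8, and each of its 12 columns matched its own array best. Its background settings are unknown here, as are chip positions. Depth has no meaning for arrays, and their number, 6 a group, limits the precision.

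Intensities were corrected with limma's neqc (R 4.3.3, limma 3.58.1, offset 16, with the negative controls estimated through detection p-values), quantile normalized and put on the log2 scale. Of 45281 probes, 19291 with a detection p-value under 0.05 on 3 or more arrays were kept. Platform annotation gave 34885 probes 1 symbol, 18 several and 10378 none. The brightest kept probe stood for each gene, giving 13210 features, of which 10143 were named. Differences were fitted over all features with lmFit and eBayes and adjusted by Benjamini-Hochberg, two-sided, at 0.05. Labels describe 1 animal per array. The replicate numbers were not used as pairs.

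Genes named are the called members (up to 15 each way), the 5 brightest members, the brightest uncalled member of each class, and 9 fixed names. Other genes in the text were chosen after their values were seen or come from the marker and pathway lists. The members, classes and lists were chosen with earlier results of these data known, and Slc4a1ap was moved among the proteins that are no carriers, and a class renamed, after values were seen. The rule for arrays with Y-linked signal was planned as any of Ddx3y, Eif2s3y, Kdm5d or Uty detected, and was narrowed to at least 2 of them after a Uty probe proved to be detected on most arrays. On simulated data with 13210 features, 67, 67 and 66 of them were given changes of 0.25, 0.5 and 1 (log2). The fit called 2.99%, 55.2% and 92.4% of these. In the data 1700 features were called, and with fewer changed features the adjusted threshold is stricter. The simulated shares are therefore not rates for the data. Promoters came from RefSeq, GRCm38.p6, and 126 of 161 members matched.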

Additional observations from a re-analysis of the deposited data

Results flagged for a closer look

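For 47 members named by rule, both groups were searched for an array far from the others, its gap to the nearest one taking more of the group's range than Dixon's 95% critical value allows for 6 samples. Of 94 groups 7 held one, and chance flags about 1 in 20 groups. In MWCNT mice, Slc25a5 was low on MWCNT 4 at 13.55, Slc37a2 low on MWCNT 5 at 8.06 and Slc39a6 high on MWCNT 1 at 10.44. In controls, Slc27a1 was low on control 4 at 8.46, Slc31a1 high on control 3 at 9.01, Slc46a3 low on control 1 at 10.20 and Slc5a6 low on control 6 at 9.64. Without the array in question, Slc37a2 differed by 0.86 (adjusted p = 0.000148, limma), Slc39a6 by 0.53 (0.000385), Slc27a1 by 0.52 (0.0144), Slc31a1 by 0.62 (0.0031) and Slc46a3 by 0.33 (0.00914). Slc25a5 (0.01) and Slc5a6 (0.15) remained uncalled.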

How the results depend on the processing

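The counts of members raised and lowered (15 and 13) and the median (−0.01) were recomputed under 25 alternatives. Among these, shares over all features are given only for the fit without the 2 arrays with Y-linked signal. The other counts therefore stand without their background. Median scaling in place of quantiles gave 27 raised, 4 lowered and a median of 0.13, while all features shifted by 0.10 in the median, and the cause was not tested. Without the 2 arrays with Y-linked signal, 8 members were lowered, with 4 MWCNT arrays left. Leaving out 1 array at a time gave 10 to 17 raised (fewest without control 2, most without control 1), 8 to 11 lowered (8 without MWCNT 3, MWCNT 6 or control 3) and medians between −0.02 and −0.0002. Averaging the probes of a gene turned Slc35e2 to −0.025 (adjusted p = 0.891 by limma, with 0.00272 to 0.891 over the alternatives), since its other probe is negative. With the replicate number as a block, 13 members were raised and 10 lowered, with a median of −0.01. Deviations of same-numbered arrays correlated between −0.18 and 0.15, not all above 0.1, so the numbers were taken only as names, and 3 of 6 MWCNT arrays deviated most like the control array of their own number. Sizes under other background handling stand beside the results. Changes of 0.25 on the log2 scale were rarely called in simulated data, which held fewer changed features and so had a stricter threshold. In the data Slc25a39 (0.21) and Slc22a18 (−0.24) were called, but an uncalled member may still differ by 0.25. Signal over background limits the dim members, 20 of which were not detected on every array.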
